A study of Arabidopsis thaliana with 24 samples.

Results

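PMEPCRF (AT5G53370) and AT2G43860 are pectin-modifying genes of Arabidopsis thaliana, and their transcript levels were compared between germinating seeds of the pickle mutant (pkl) and of wild type (Columbia), with and without uniconazole. Probe sets were taken for these genes where the platform annotation, with symbols updated through RefSeq, paired them with PMEPCRF or AT2G43860. This gave 2 probe sets, 1 for each gene, out of 22746 tested, of which those paired with a single gene covered 13286 loci. Both genes were chosen by their differences in signal between the 4 groups on these same arrays, so their own levels and differences are given as a description, without a test.

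Levels were measured on 24 Affymetrix ATH1 arrays, on which a probe set of short oligonucleotides reports a transcript. The 4 groups of 6 arrays were pkl with 10 nM uniconazole, wild type with 10 nM uniconazole, pkl with solvent only and wild type with solvent only. All media held 0.01% methanol, the solvent, in agar-solidified Murashige and Skoog medium, and all seeds were kept under constant illumination. The labels call the arrays of a group biological replicates but do not say whether they came from separate seed lots, and they give neither the pkl allele nor the age of the seeds at harvest. The PKL transcript was not analysed here, so the genotype labels have no check of their own.

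Pectin is the gel-forming polysaccharide of the primary cell wall, and its main chain, homogalacturonan, is laid down with methyl groups on its galacturonic acid units. Pectin methylesterases remove these groups, proteinaceous inhibitors hold the esterases back, and polygalacturonases and pectate lyases cut the demethylated chain. In germinating seeds these enzymes act on the walls of the growing embryo and of the tissues around it. PMEPCRF encodes a pectin methylesterase, and AT2G43860 belongs to the polygalacturonase family. PICKLE remodels chromatin as a member of the CHD3 class, and uniconazole blocks the synthesis of gibberellin, a hormone that promotes germination. RNA came from germinating seeds in bulk, so fewer cells of a type and less RNA per cell cannot be told apart.

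Signals are on the deposited linear intensity scale. Background was read from 27 probe sets for bacterial transcripts, whose 648 values had a median of 12.2 and a 95th percentile of 54.9, called the bacterial control level here. Log2 differences are of signal + 16 and come, with their standard errors, from 1 linear model over the 4 groups. Folds are ratios of mean signals, and the dimmer mean was replaced by the bacterial control level where it lay at or under it, which makes the fold a minimum.

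AT2G43860 was much dimmer in pkl than in wild type, and dimmest in pkl with uniconazole. In pkl with uniconazole its signals were 17.6, 6.7, 11.2, 9.4, 5 and 10.1 on the 6 arrays. In wild type with uniconazole they were 601, 317.2, 295.8, 305.2, 826.1 and 828. The pkl arrays with uniconazole all lay inside the range of the bacterial controls, 48.1% of whose values on the same arrays were under the group mean of 10. With solvent the signals were 165.8, 85.7, 126.3, 169, 69.7 and 109.2 in pkl. Wild type with solvent had 1025.6, 613.5, 732.6, 614.6, 504.8 and 705. No pkl array reached the lowest wild-type array of the same medium.

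Group means of AT2G43860 were 10 ± 4.37 in pkl with uniconazole, 529 ± 258 in wild type with uniconazole, 121 ± 40.9 in pkl with solvent and 699 ± 179 for solvent-treated wild type (SD, n = 6 each). From high to low the order was wild type with solvent, wild type with uniconazole, pkl with solvent and pkl with uniconazole. The first neighbouring pair overlapped, with 3 of 6 wild-type arrays with uniconazole inside the range of those with solvent and the other 3 below it. The other 2 neighbouring pairs did not overlap.

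**Figure D1:**
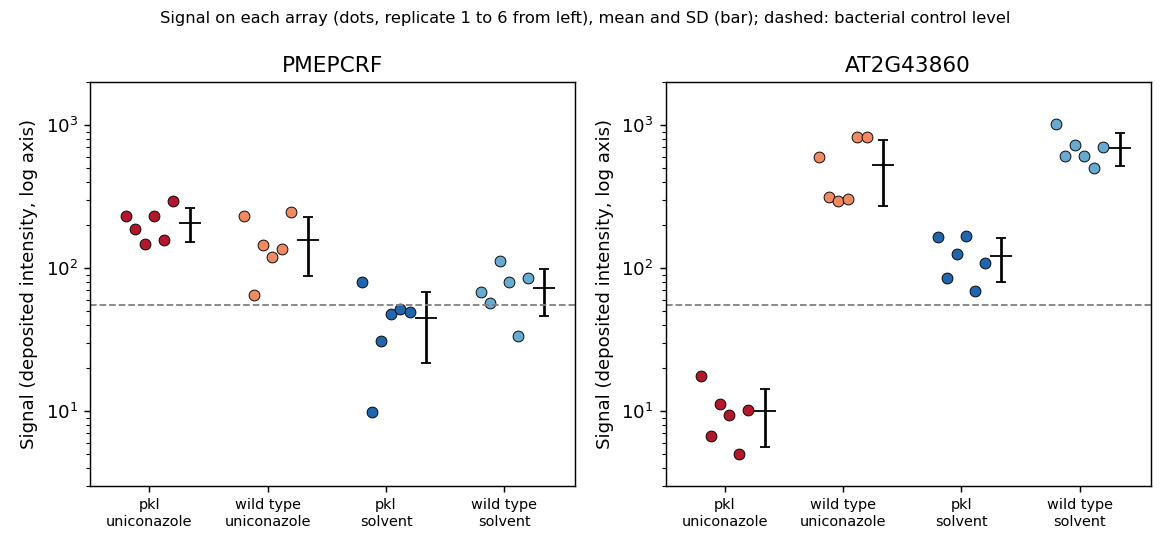
Signal of PMEPCRF (left) and AT2G43860 (right) on each array, on a log axis, for pkl with uniconazole, wild type with uniconazole, pkl with solvent and wild type with solvent (6 dots per group, replicate 1 to 6 from left; bars are mean and SD; the dashed line is the bacterial control level of 54.9). AT2G43860 lies between 5 and 17.6 in pkl with uniconazole, under the dashed line, while PMEPCRF lies above the line on all 12 arrays with uniconazole.

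In uniconazole AT2G43860 differed between pkl and wild type by -4.27 ± 0.25 on the log2 scale (SE), and it was at least 9.64-fold lower in pkl. That was the lowest log2 difference among the 22746 probe sets in the comparison. In solvent the difference was -2.41 ± 0.25, a signal 5.78-fold lower in pkl, the 5th lowest of 22746. All 6 pkl arrays were below all 6 wild-type arrays in each medium. Across all probe sets, such a complete separation downwards was seen for 4.05% in uniconazole and 2.58% in solvent.

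AT2G43860 was also dimmer with uniconazole than with solvent, by more in pkl than in wild type. In pkl the log2 difference between uniconazole and solvent was -2.36 ± 0.25, at least 2.20-fold lower with uniconazole, with all 6 treated arrays below all 6 with solvent (6% of probe sets separated in this way). In wild type the log2 difference was -0.50 ± 0.25, and 3 of 6 treated arrays were below all with solvent (3.14% of probe sets had all 6 below). Subtracting the pkl difference in solvent from that in uniconazole gave -1.86 ± 0.36 on the log2 scale, which is the 2nd lowest of 22746. The lower end of this scale is set by the offset, because the signals of pkl with uniconazole are at background. With an offset of 64 the pkl difference in uniconazole was -2.89 and the interaction, this difference less the one in solvent, was -0.84. With an offset of 1 these values were -5.53 and -2.98.

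PMEPCRF was near background with solvent and brighter with uniconazole in both genotypes. Its signals in pkl with uniconazole were 230.4, 187.6, 147.7, 231.3, 157 and 295.4. In wild type with uniconazole they were 233.5, 65.3, 145.5, 120.3, 136.9 and 249.2. All 12 treated arrays were above the bacterial control level. The signals with solvent were 80.2, 9.9, 30.9, 48, 51.6 and 49 in pkl, where 1 of 6 arrays exceeded that level. Wild type with solvent had 68.7, 57, 112, 80.6, 33.7 and 84.9, and 5 of 6 arrays exceeded it.

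Group means of PMEPCRF were 208 ± 55.4 in pkl with uniconazole, 158 ± 70.2 in wild type with uniconazole, 44.9 ± 23.4 in pkl with solvent and 72.8 ± 26.6 for solvent-treated wild type (SD, n = 6 each). The order from high to low was pkl with uniconazole, wild type with uniconazole, wild type with solvent and pkl with solvent. Each of the 3 neighbouring pairs in this order overlapped. Pkl with uniconazole was above both solvent groups on every array.

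In pkl the log2 difference of PMEPCRF between uniconazole and solvent was 1.95 ± 0.29 (SE), which is at least 3.80-fold higher with uniconazole. All 6 treated pkl arrays were above all 6 with solvent, a separation that 6.84% of probe sets showed, and the difference was the 68th highest of 22746. With an offset of 64 it was 1.33. In wild type the log2 difference was 0.93 ± 0.29, a signal 2.18-fold higher with uniconazole, and 5 of 6 treated arrays were above all with solvent (4.04% of probe sets had all 6 above). The exception was replicate 2, with a signal of 65.3, and without it the log2 difference was 1.13.

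Between genotypes PMEPCRF differed less. In uniconazole the log2 difference of pkl from wild type was 0.43 ± 0.29, with 1 of 6 pkl arrays above all wild-type arrays (4.95% of probe sets had all 6 above). Without replicate 2 of wild type this difference was 0.23, and with the GAPDH covariate (the ratio of its 3′ to 5′ control signals) it was 0.21. In solvent it was -0.59 ± 0.29, with 2 of 6 pkl arrays below all wild-type arrays, and the pkl mean under the bacterial control level made it at least 1.33-fold lower in pkl. This difference was -0.37 without replicate 2 of pkl, with its signal of 9.9, and -0.33 with an offset of 64. Its interaction was 1.02 ± 0.42 (0.66 with an offset of 64), positive where that of AT2G43860 was negative. Over the 24 arrays the 2 genes had a Pearson's r of -0.26, and after subtracting group means it was 0.53, as a description over arrays that share their other conditions.

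The wild-type arrays with uniconazole split into 2 levels of AT2G43860, with replicates 1, 5 and 6 between 601 and 828 and replicates 2, 3 and 4 between 295.8 and 317.2. Replicates 1 and 6 were also the brightest of the group for PMEPCRF, at 233.5 and 249.2, and replicate 2 the dimmest, at 65.3. Replicate 5, at 136.9, lay below replicate 3, at 145.5, so PMEPCRF did not show the same split. The coefficient of variation within this group was 48.7% for AT2G43860 and 44.3% for PMEPCRF. The log2 ratio of the 3′ to the 5′ control probe set of GAPDH, which follows RNA integrity, was 0.29, 0.30 and 0.38 in replicates 1, 5 and 6, and 0.45, 0.42 and 0.34 in replicates 2, 3 and 4. Its part in these levels was not tested for single arrays. With this ratio as a covariate over all arrays, an alternative chosen after seeing the data, the log2 difference of uniconazole from solvent in wild type was -0.30 for AT2G43860 and 1.25 for PMEPCRF.

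The arrays as a whole were alike. Their median signals ranged from 310.6 to 371.5, 9.07% to 13% of probe sets had signals under 16 on an array, and the GAPDH ratio ranged from 0.12 to 0.45. The median correlation of an array with the others of its group was between 0.974 and 0.981 across probe sets. Of the tissue markers looked for, 1 of 7 storage and oil body genes, 2 of 5 seed coat and mucilage genes, 2 of 4 root hair genes and 0 of 4 endosperm genes were measured. The others had no probe set that the annotation paired with a single gene. The marker lists were chosen with earlier results of these data known, so the p-values below are a description and not an independent tissue check. PAP85, a vicilin-like storage protein gene of seeds, was above the bacterial control level on all 24 arrays. It had 2429 ± 387 in pkl with uniconazole, 304 ± 75.8 in wild type with uniconazole, 1000 ± 168 in pkl with solvent and 167 ± 30.2 for wild type in solvent (SD, n = 6). It was higher in pkl by 2.95 in uniconazole and by 2.47 in solvent, and higher with uniconazole by 1.27 in pkl and by 0.79 in wild type, all on the log2 scale (adjusted p = 2.25e-14, 1.00e-12, 1.20e-07 and 2.11e-04). The part of tissue makeup or stage in the levels of AT2G43860 and PMEPCRF was not tested. BAN, a seed coat flavonoid gene, was above the bacterial control level on 0 arrays. The other seed coat and mucilage gene, AT5G49180, is in the methylesterase list too. The root hair expansin gene EXPA18 had 1718 ± 654 in pkl with uniconazole, 954 ± 420 in wild type with uniconazole, 703 ± 330 in pkl with solvent and 462 ± 109 for solvent-treated wild type (SD, n = 6). It rose with uniconazole in pkl (adjusted p = 6.22e-04) and in wild type (adjusted p = 0.0189). EXPA7, the other root hair gene measured, had 958 ± 471, 498 ± 193, 559 ± 229 and 344 ± 91.3 in the same groups, and did not pass for uniconazole in pkl (adjusted p = 0.0698) or in wild type (adjusted p = 0.333). The part of root hair cells in the PMEPCRF level was not tested.

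AT2G43860 lies on chromosome 2 beside 3 further polygalacturonase family genes, AT2G43870, AT2G43880 and AT2G43890, all within 4 gene entries after it in the RefSeq annotation of assembly TAIR10.1. Neighbouring family members may share sequence, and cross-hybridisation between their probe sets was not tested. Their levels followed AT2G43860 in some comparisons and not in others. Among the other 43 polygalacturonase genes AT2G43890 had the lowest log2 difference for pkl in solvent (-1.13) and for uniconazole in wild type (-0.87). AT2G43870 had the lowest interaction (-0.88). AT2G43880 had 165 ± 35.8 with uniconazole and 401 ± 61 with solvent in pkl (SD, n = 6; log2 change -1.22 ± 0.15, adjusted p = 5.65e-07). In wild type it had 176 ± 16.1 with uniconazole and 287 ± 65.8 with solvent (log2 change -0.64 ± 0.15, adjusted p = 0.00353).

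In solvent AT2G43880 was higher in pkl than in wild type (log2 change 0.47 ± 0.15, adjusted p = 0.0375), the opposite sign to AT2G43860. In uniconazole its pkl difference of -0.11 ± 0.15 did not pass (adjusted p = 0.69). AT2G43870 had 83.2 ± 63.5 with uniconazole and 178 ± 51.1 with solvent in pkl, and fell with uniconazole in pkl (log2 change -1.20 ± 0.35, adjusted p = 0.0144). Its pkl differences of -0.70 in uniconazole and 0.18 in solvent did not pass (adjusted p = 0.181 and 0.837).

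AT2G43890 was near background, with 24 ± 15.2 in pkl with solvent and 76 ± 43.8 for solvent-treated wild type (n = 6, SD; log2 change -1.13 ± 0.35, adjusted p = 0.037), at least 1.38-fold lower in pkl. This call was lost when replicate 1, 2, 3, 5 or 6 of pkl or replicate 1, 3 or 5 of wild type was left out (adjusted p from 0.053 to 0.0954). In uniconazole both its means were under the bacterial control level. None of the 3 neighbours had a pkl log2 difference as low as that of AT2G43860 in either medium.

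**Figure D2:**
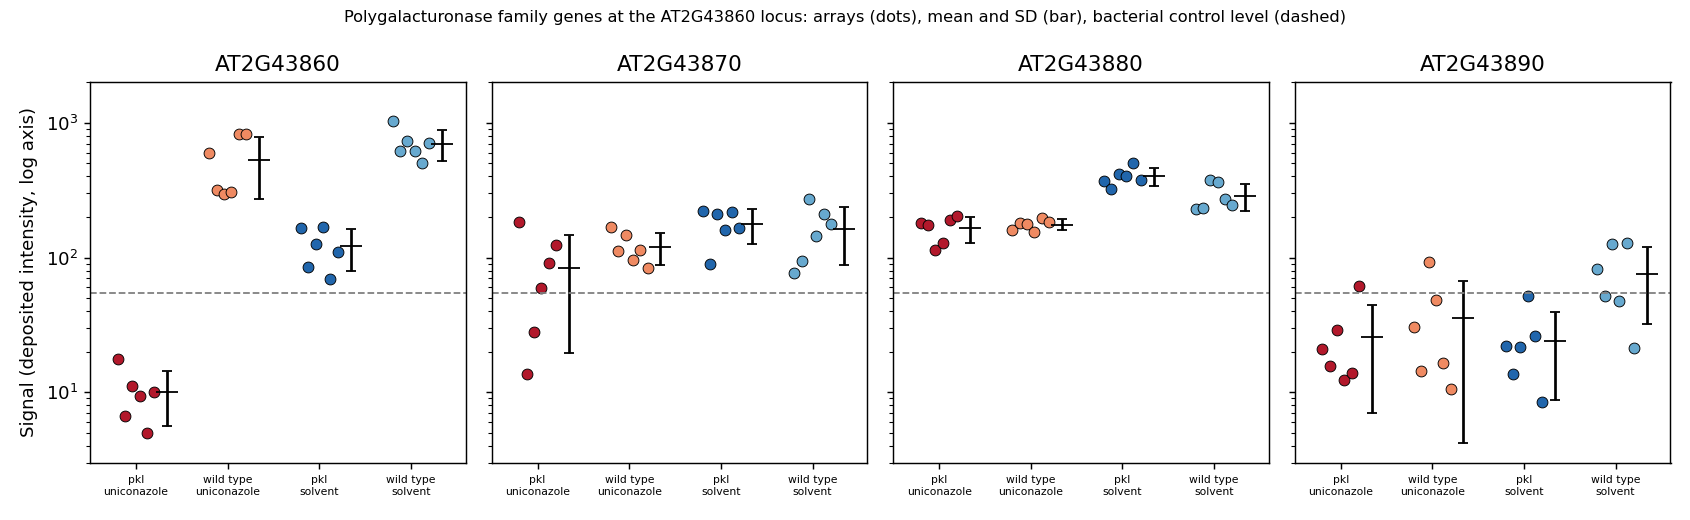
Signal on each array, on a log axis, of AT2G43860 and of AT2G43870, AT2G43880 and AT2G43890, for pkl with uniconazole, wild type with uniconazole, pkl with solvent and wild type with solvent (6 dots per group; bars are mean and SD; the dashed line is the bacterial control level of 54.9). The pkl arrays are apart from wild type in both media for AT2G43860, whereas AT2G43880 is dimmer with uniconazole in both genotypes.

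The same comparisons were read in 132 further pectin genes from 6 lists of loci. Of the 223 loci listed, 207 were assigned to families from general knowledge of the Arabidopsis genome. The other 16 were added by a family name among their RefSeq names. Of the 132 genes, 82 had a mean over all arrays above the bacterial control level. Benjamini-Hochberg adjustment was over all 22746 probe sets in the limma fit, with a threshold of 0.05. In the interaction 0 of 132 passed in limma, while 19 had an unadjusted p under 0.05. Over all probe sets 0.141% passed there.

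AT2G43860 stood outside the range of its family in both genotype comparisons. Of the other 43 polygalacturonase genes, 23 had a mean over all arrays above the bacterial control level. Genes near background have little room to fall, which limits this range on its lower side. In uniconazole the other 43 polygalacturonase genes had log2 differences of pkl from wild type between -0.83 and 0.79, with a median of 0.09, and 4 rose and 3 fell. In solvent they lay between -1.13 and 0.97, with a median of -0.02, and 5 rose and 2 fell. In each medium 16.3% of the 43 passed, against 18.6% of all probe sets in uniconazole and 11.7% in solvent. AT1G60590 was higher in pkl in solvent, with 200 ± 49.2 in pkl against 93.5 ± 20.1 in wild type (n = 6, SD; log2 change 0.97 ± 0.15, adjusted p = 7.15e-05).

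For uniconazole against solvent in pkl, AT2G43860 was again below all 43, whose log2 differences lay between -1.50 and 0.98. Of them 9 fell and 3 rose, 27.9% of the 43 against 22% of all probe sets. AT3G59850 had 56.8 ± 36.8 with uniconazole and 167 ± 38.5 with solvent (log2 change -1.50 ± 0.30, adjusted p = 4.21e-04). In wild type 8 of the 43 had a lower difference than AT2G43860. Of the 43, 4 fell and 2 rose there, 14% against 16.5% of all probe sets. AT1G60590 rose there by 1.36 ± 0.15 on the log2 scale, with 263 ± 43.8 with uniconazole and 93.5 ± 20.1 with solvent (adjusted p = 3.16e-07).

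PMEPCRF was the highest of its family for uniconazole against solvent in pkl. The other 44 pectin methylesterase genes had log2 differences between -1.18 and 1.62, with a median of -0.11, and 10 fell and 2 rose. Of these genes 27.3% passed, against 22% of all probe sets. In wild type 41 of the 44 were below PMEPCRF, and 6 fell and 2 rose. The share that passed in wild type was 18.2%, against 16.5% of all probe sets. The genes that rose were AT5G04960 and AT5G19730 in both genotypes. AT5G19730 had 544 ± 99.2 with uniconazole and 226 ± 42.4 with solvent in pkl (log2 change 1.21 ± 0.13, adjusted p = 9.12e-08), and 432 ± 50.1 and 180 ± 29.2 in wild type (1.20 ± 0.13, adjusted p = 1.96e-07).

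AT5G04960 had 1143 ± 186 with uniconazole and 400 ± 189 with solvent in pkl (n = 6, SD; log2 change 1.62 ± 0.29, adjusted p = 9.79e-05). In wild type it had 736 ± 327 and 343 ± 92.9 (log2 change 0.98 ± 0.29, adjusted p = 0.0173), and this call was lost without replicate 1 with uniconazole (log2 change 0.82, adjusted p = 0.0549). AT3G49220, with the lowest difference of the family in pkl, fell by 1.18 on the log2 scale there (adjusted p = 6.49e-10) and by 0.86 in wild type (adjusted p = 2.66e-07). AT3G43270 fell in wild type to 186 ± 21.9 with uniconazole, against 422 ± 52.1 with solvent (log2 change -1.12 ± 0.11, adjusted p = 1.43e-08).

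Between genotypes, 13.6% of the pectin methylesterase genes passed in uniconazole and 4.55% in solvent, against 18.6% and 11.7% of all probe sets. In uniconazole 3 of 44 were higher and 3 lower in pkl, and 37 of the 44 had a difference below that of PMEPCRF. AT5G49180 had 176 ± 41.7 in pkl against 61.1 ± 30 in wild type (n = 6, SD; log2 change 1.44 ± 0.35, adjusted p = 0.00405). In solvent 2 of 44 were higher and 0 lower, and PMEPCRF was below 43 of the 44. AT5G51500 had 437 ± 68.1 in pkl and 193 ± 46.5 in wild type with solvent (log2 change 1.13 ± 0.18, adjusted p = 4.91e-05), and it also rose in uniconazole (0.98 ± 0.18, adjusted p = 1.95e-04). AT2G26450 passed in solvent (log2 change 1.32, adjusted p = 0.0275), a call lost without replicate 5 of pkl or replicates 1, 2 or 5 of wild type (adjusted p from 0.0566 to 0.0843).

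Over the 6 lists, more pectin genes fell than rose with uniconazole, the direction of AT2G43860 and not of PMEPCRF. In pkl 32 of 132 fell and 8 rose with uniconazole, 30.3% of the list against 22% of all probe sets (11.4% higher, 10.6% lower), with a median log2 change of -0.06 against 0.02 over all probe sets. In wild type 21 fell and 6 rose, 20.5% against 16.5% (9.07% higher, 7.43% lower), with medians of -0.13 and -0.02. The comparisons in pkl and in wild type share no arrays, and 19 genes fell in both, 59.4% of those in pkl and 90.5% of those in wild type. Over all probe sets these shares were 54.3% and 77.3%. With arrays scaled to one median the list had 7 higher and 34 lower in pkl, against 1752 and 3167 of all probe sets, and 5 higher and 24 lower in wild type, against 1414 and 2184, so that all probe sets then fell more often than they rose as well.

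Between genotypes the directions were mixed. In uniconazole 13 of the 132 rose and 14 fell in pkl, 20.5% against 18.6% of all probe sets (9.87% higher, 8.69% lower), with medians of 0.01 and 0.04. In solvent 16 rose and 10 fell, 19.7% against 11.7% (6.78% higher, 4.97% lower), with medians of 0.00 for both. After median scaling of the arrays, 9 pectin genes were higher and 18 lower in uniconazole, against 1569 and 2838 of all probe sets. In solvent 12 were higher and 12 lower after this scaling, against 1131 and 1445 of all probe sets. Quantile normalization gave 10 higher and 17 lower in uniconazole, against 2006 and 2294 of all probe sets. In each of these cases all probe sets had more lower than higher calls as well, or where the pectin genes were even. The genotype comparisons share no arrays, and 10 genes rose in both, 76.9% of those in uniconazole and 62.5% of those in solvent, while 6 fell in both, 42.9% and 60% of them. Over all probe sets these shares were 45.5% and 66.3% for higher calls, and 40.1% and 70.2% for lower calls.

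Of 23 pectate lyase genes 2 rose and 6 fell with uniconazole in pkl, and 1 rose and 7 fell in wild type. In all, 34.8% passed in each genotype, against 22% and 16.5% of all probe sets. AT5G48900 had 273 ± 62.3 in pkl with uniconazole, 596 ± 98.8 in wild type with uniconazole, 581 ± 88.2 in pkl with solvent and 1144 ± 126 for solvent-treated wild type (SD, n = 6). It was thus lower in pkl in uniconazole (log2 change -1.10, adjusted p = 7.31e-07) and in solvent (-0.96, adjusted p = 6.59e-06), and lower with uniconazole in wild type (-0.93, adjusted p = 7.65e-06). In the order of its group means it resembled AT2G43860, with pkl with uniconazole lowest and wild type with solvent highest, and its difference between media in wild type was -0.93, against -0.50 for AT2G43860. AT3G27400 fell in pkl by 1.54 in solvent and by 1.18 in uniconazole on the log2 scale (adjusted p = 1.70e-07 and 9.25e-06). AT3G09540 rose with uniconazole in pkl by 1.08 on the log2 scale (adjusted p = 2.08e-06).

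Of 14 genes in the inhibitor list, 4 rose and 2 fell in pkl in uniconazole, and 5 rose and 2 fell in solvent. These were 42.9% and 50% of the list, against 18.6% and 11.7% of all probe sets. AT5G20740 had 1125 ± 241 in pkl and 619 ± 174 in wild type with uniconazole (n = 6, SD; log2 change 0.86 ± 0.15, adjusted p = 1.01e-04). Of 6 pectin acetylesterase genes, whose products remove acetyl groups from pectin, 1 rose and 2 fell in pkl in each medium. That was 50% of them in each medium, against the same 18.6% and 11.7% of all probe sets. AT5G26670 fell by 1.19 on the log2 scale in uniconazole (adjusted p = 1.31e-06). AT1G57590 had 1754 ± 257 in pkl and 990 ± 95.4 in wild type with uniconazole, and 1810 ± 168 in pkl and 903 ± 74.7 in wild type with solvent (adjusted p = 1.53e-07 and 4.44e-09). Only 2 genes of the pectin synthesis list had a probe set that the annotation paired with a single gene. Of these 1, AT3G49720, fell with uniconazole in both genotypes.

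**Figure D3:**
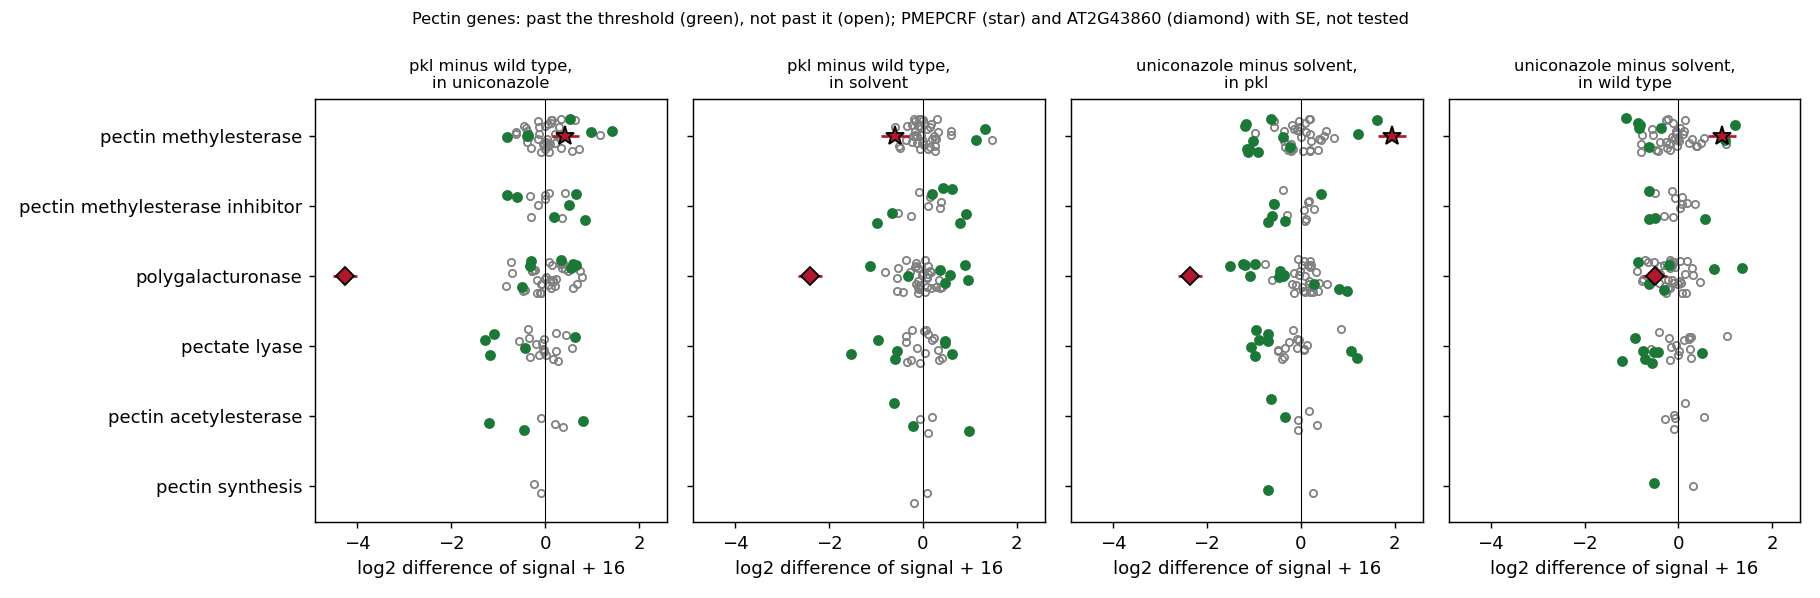
Log2 differences of signal + 16 for 132 pectin genes in 6 families (circles; green past the threshold, open not past it) and for PMEPCRF (star) and AT2G43860 (diamond), which were not tested and carry SE bars. The panels are pkl minus wild type in uniconazole and in solvent, and uniconazole minus solvent in pkl and in wild type, and AT2G43860 lies at -4.27, -2.41, -2.36 and -0.50 in them.

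Genes whose pattern was most like that of each member were found by Pearson's r of log2(signal + 16) over the 24 arrays, among probe sets with 1 gene and a mean above the bacterial control level. All points share the 4 groups, so r is given as a description, beside the same r after subtracting group means for some genes. For AT2G43860 the 5 highest were AT1G49470 (r = 0.96), AT1G29080 (0.96), the expansin gene EXPA9 (0.96), whose product loosens cell walls, AT5G45650 (0.95) and AT5G24570 (0.93). AT1G49470 had 919 ± 218 in pkl with uniconazole, 4295 ± 1469 in wild type with uniconazole, 1466 ± 291 in pkl with solvent and 4475 ± 487 for solvent-treated wild type (SD, n = 6). EXPA9 had 5263 ± 678, 10079 ± 2137, 8163 ± 866 and 12300 ± 1346 in these groups, in the same order of means as AT2G43860. With group means subtracted, r with AT2G43860 was 0.81 for AT1G49470 and 0.81 for EXPA9, but -0.16 for AT5G24570.

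The split within wild type with uniconazole was also present in AT1G49470, AT1G29080, EXPA9 and AT5G45650. It was not present in AT5G24570, where replicate 3 was the highest at 2199.3 and replicate 5 had 1912.8. AT1G49470 had signals of 4135.9, 6245 and 5994.3 in replicates 1, 5 and 6, and between 3043 and 3175.8 in replicates 2, 3 and 4. EXPA9 had 10815.5, 12790.5 and 12210.4 in replicates 1, 5 and 6, and between 8115 and 8314.9 in replicates 2, 3 and 4. AT1G29080 had 2195.1, 3029.3 and 3337.8 in replicates 1, 5 and 6, and between 1461.4 and 1682.5 in replicates 2, 3 and 4. AT5G45650 had 6448.2, 7096.7 and 7675.3 in replicates 1, 5 and 6, and between 5305.2 and 5668.5 in replicates 2, 3 and 4. The higher AT2G43860 arrays of that group were thus also the higher ones for these genes. These genes were picked by their r with AT2G43860 over these same arrays. Their shared split is therefore partly built in by that choice, and is given as a description only.

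For PMEPCRF the 5 highest were AT5G17760 (r = 0.86), AT3G59300 (0.86), AT1G75370 (0.85), AT5G20700 (0.85) and AT5G04960 (0.85), the last of them a pectin methylesterase gene like PMEPCRF itself. AT5G17760 had 972 ± 137 in pkl with uniconazole, 667 ± 127 in wild type with uniconazole, 309 ± 77.1 in pkl with solvent and 291 ± 59.3 for solvent-treated wild type (SD, n = 6). On the arrays of AT5G04960 replicate 2 was the dimmest of wild type with uniconazole, at 337.9, and of pkl with solvent, at 137.2. PMEPCRF was dimmest on the same arrays, at 65.3 and 9.9. With group means subtracted, r with PMEPCRF was 0.59 for AT5G17760, 0.41 for AT3G59300, 0.53 for AT1G75370, 0.65 for AT5G20700 and 0.68 for AT5G04960. All of them were picked by r over these same arrays.

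**Figure D4:**
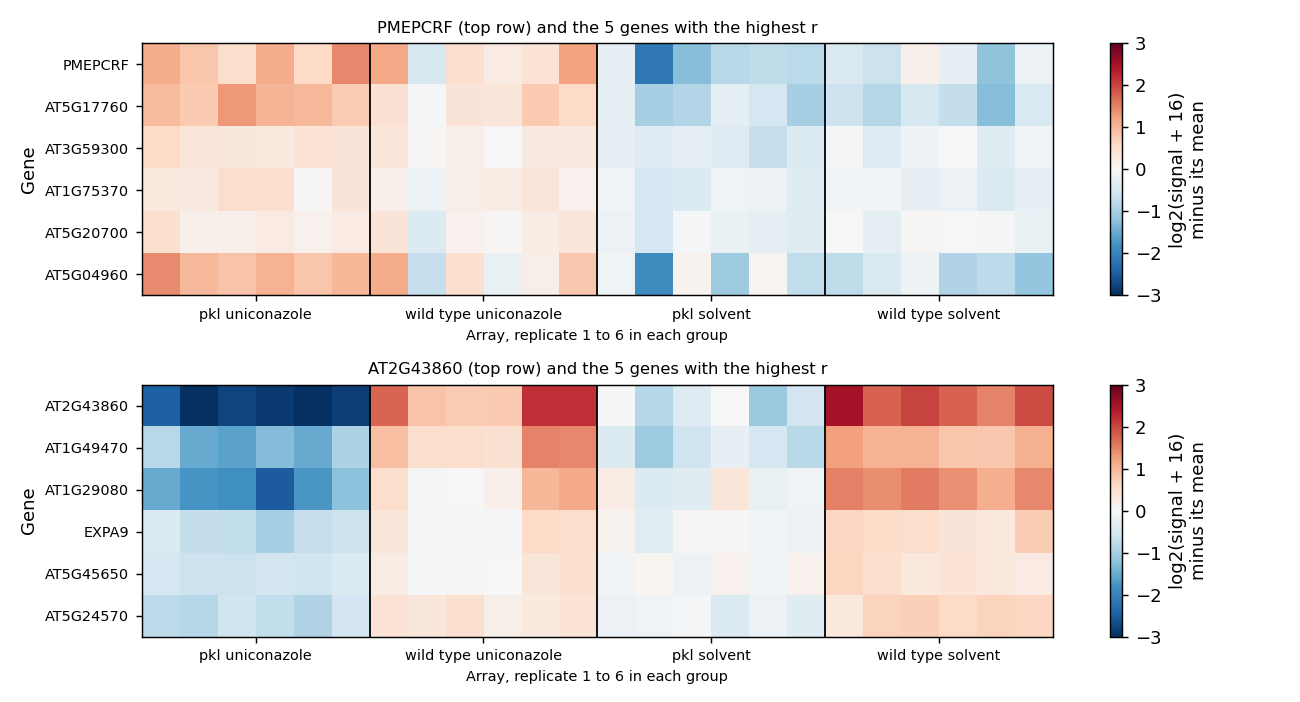
Log2(signal + 16) minus its mean over the 24 arrays for PMEPCRF (top block) and AT2G43860 (bottom block), each with the 5 genes of highest Pearson's r in the rows below it. Columns are the 6 arrays of pkl with uniconazole, wild type with uniconazole, pkl with solvent and wild type with solvent. In wild type with uniconazole, replicates 1, 5 and 6 are redder than 2, 3 and 4 for AT2G43860, AT1G49470, AT1G29080, EXPA9 and AT5G45650.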

How the data were processed

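Per the submitters' processing notes the authors derived the deposited linear intensity values with MAS5, of unstated version. Every array had a mean of 1000.1 once the top and bottom 2% were trimmed. Groups came from the sample titles. Of 22810 probe sets, 64 controls were left out, and the platform annotation paired 13513 of the other 22746 with 1 gene, 503 with several and did not list 8730. All value columns belonged to the 24 arrays, and no 2 arrays were identical. Log2(intensity + 16) was fitted with limma 3.58.1 in R 4.3.3 (lmFit, eBayes with a trend, 20 residual degrees of freedom), with two-sided p-values adjusted by Benjamini-Hochberg within each of 5 contrasts. The code was tested on simulated data.

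The members, and the pectin and tissue lists, were chosen with earlier results of these data known. Of 223 pectin loci listed, 16 of them by RefSeq name, 134 were measured, members included. A locus counted as measured where the annotation paired a probe set with it alone, and others may lie among the 8730 not listed. The brightest probe set stood for a gene with several. Named pectin genes are drawn from those with the largest log2 changes past the threshold, at most 4 each way per contrast, with a mean above the bacterial control level in a group compared, and the neighbours of AT2G43860. The count of arrays limits the precision, and p-values measure the spread between these arrays. Beyond the gene order taken from assembly TAIR10.1, no coordinates are given, and no sequence is shown. Alternatives were other offsets, scalings, a low-signal filter, a replicate block, 2-group fits, leaving out each array and a GAPDH covariate. Same-numbered arrays were compared for pairing, and 6 of 24 pairs had correlated deviations above 0.1 (range -0.09 to 0.16), so numbers were not taken to pair arrays. With the number as a block, the standard error for uniconazole in pkl was 0.24 for PMEPCRF and 0.24 for AT2G43860, against 0.29 and 0.25. Over all probe sets 2765 were higher and 2577 lower there, against 2594 and 2405 without the block. Spread shared by number was not tested further.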

Additional observations from a re-analysis of the deposited data

Results flagged for a closer look

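Of 100 groups of 6 arrays looked at for the members, the neighbours of AT2G43860 and the named pectin genes, 10 had an array far from the others of its group, and chance gives about 1 in 20. Neither PMEPCRF nor AT2G43860 was among them. In pkl with uniconazole AT2G43890 had 61.4 in replicate 6, with the next array at 28.8, AT5G49180 had 259.1 in replicate 2, with the next at 171.9, and AT5G04960 had 1501.6 in replicate 1, with the next at 1144.7. AT5G04310 had 6.2 in replicate 4 of pkl with uniconazole, while the other 5 arrays were at 79.2 or above. In wild type with uniconazole AT2G26450 had 131.7 in replicate 5, with the next at 63.9. In pkl with solvent AT3G43270 had 444.8 in replicate 4, with the next at 390.1, and AT1G11920 had 59.3 in replicate 1, with the next at 14.3. In wild type with solvent AT3G49220 had 1283.8 in replicate 1, while the other arrays were at 1764.2 or above. AT1G11920 had 37.2 and AT3G09540 had 227.3 in replicate 3 of wild type with solvent, with the next arrays at 14.1 and 149.7.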

How the results depend on the processing

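Both members kept their direction in every comparison under every alternative run. With an offset of 64 the log2 difference of AT2G43860 was -2.89 for pkl in uniconazole, -1.29 for uniconazole in pkl and -0.84 for the interaction, and that of PMEPCRF for uniconazole in pkl was 1.33. With an offset of 1 the AT2G43860 values were -5.53, -3.49 and -2.98. Its signals in pkl with uniconazole are at background, so the size of these values rests on the offset. The counts of pectin genes past the threshold ranged over all alternatives from 23 to 29 for pkl in uniconazole, 20 to 29 for pkl in solvent, 37 to 43 for uniconazole in pkl and 23 to 29 for uniconazole in wild type, and stayed at 0 for the interaction. With the replicate number as a block they were 27, 29, 43, 28 and 0, and no member changed direction. The 32 named pectin results were recomputed 638 times, and 26 of these lost the threshold, in 4 results, with 0 changes of sign. Besides calls already given, AT1G11920 for uniconazole in pkl (log2 change 1.21, adjusted p = 0.0398) was lost with an offset of 64 (0.60, adjusted p = 0.0674), with quantile normalization (adjusted p = 0.0635), fitted on its 2 groups alone (0.0522), with the GAPDH covariate (0.0651), and without replicate 1, 3 or 6 with uniconazole or any of replicates 2 to 6 with solvent (0.0564 to 0.126). With the GAPDH covariate AT2G43890 also lost its call for pkl in solvent (adjusted p = 0.0595). The causes were not tested.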

Other observations

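Of the pectin genes measured, 2 had a second probe set. For AT5G04310, a pectate lyase gene, the brighter probe set had a log2 change of -1.27 for pkl in uniconazole (adjusted p = 0.00243) and the other -1.08 (adjusted p = 0.00563). For uniconazole in pkl they had -0.69 (adjusted p = 0.0944) and -1.21 (adjusted p = 0.00148), so the call rests on which of them is read. For AT1G62760, in the inhibitor list, the brighter probe set had a mean signal of 256 over all arrays and the other 4.32, which is under the bacterial control level.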
